A study of Oryza sativa with 18 samples.

Results

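Transcripts of 9 rice genes of nitrate reduction and ammonium assimilation were followed through 18 leaf libraries. The genes were chosen by identifier and role and not by a cut on their values, though earlier results of these data were known. They were nitrate reductases Os08g0468100 and Os02g0770800, nitrite reductase Os01g0357100, and the glutamine synthetases GS1;1 (Os02g0735200), GS1;2 (Os03g0223400) and GS2 (Os04g0659100). The others were the glutamate synthases NADH-GOGAT1 (Os01g0681900) and Fd-GOGAT (Os07g0658400), and asparagine synthetase Os03g0291500. The count table holds 37863 genes, and all 9 were among the 25957 genes that passed the filter on low counts. The libraries came from leaves of FKBP57 knockout, FKBP73 knockout and wild-type Ningjing 4 plants, each either given 150 mM NaCl for 4 hours or kept in nutrient solution without added salt, with 3 biological replicates in each of the 6 groups. FKBP57 and FKBP73 bind the drug FK506 and belong to a family that isomerises proline bonds in proteins, and the series title ties both to salt tolerance and to grain protein content. Whether replicates came from separate plants is not stated, so p-values measure the spread between these samples. The labels give neither the alleles nor the number of knockout lines, nor the nitrogen source of the nutrient solution. They state no time for the controls either, so salt and a difference in harvest time or handling cannot be told apart.

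Plants take up much of their nitrogen as nitrate, which nitrate reductase turns into nitrite in the cytosol and nitrite reductase turns into ammonium in the plastid. Glutamine synthetase then joins ammonium to glutamate to make glutamine, and glutamate synthase (GOGAT) passes the amide nitrogen of glutamine to 2-oxoglutarate, giving glutamate again. In green leaves the plastid form GS2 and the ferredoxin-dependent Fd-GOGAT recapture the ammonium released by photorespiration. NADH-GOGAT and the cytosolic GS1 forms are best known for primary assimilation in roots and for moving nitrogen in and out of vascular tissue. Asparagine synthetase transfers the amide of glutamine to aspartate, and asparagine is a common form in which nitrogen is transported and stored.

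Total counts ran from 27601098 to 39894394 per library, and the 9 genes held between 0.55% and 1.75% of them. A list of 5 photosynthetic leaf genes summed to between 4940 and 16400 CPM (read counts scaled to library size, with TMM factors that make libraries comparable) under salt, and to between 7110 and 48700 CPM in controls. A list of 3 root genes summed to between 3.93 and 9.17 CPM under salt and to between 4.28 and 18.9 CPM in controls. Both of 2 genes taken as a check of the salt label rose in each genotype, with average log2 fold changes of 4.96 for Os11g0454300 and 4.05 for Os01g0348900. The tissue was sampled in bulk, so fewer cells of a type and less RNA per cell cannot be told apart. Reads that match more than 1 gene, as may happen among related glutamine synthetases or nitrate reductases, may have been shared or dropped in counting. Gene lengths were not used either, so levels are compared between libraries and not between genes.

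Under salt, averaged over the 3 genotypes, 3 of the 9 genes rose, 3 fell, and the remaining 3 missed the threshold. The genes that rose were those of cytosolic glutamine synthetase GS1;1, NADH-GOGAT1 and asparagine synthetase. Those that fell were GS1;2 and the listed nitrate reductases Os08g0468100 and Os02g0770800. Nitrite reductase, GS2 and Fd-GOGAT were not called. A gene was called at an adjusted p under 0.05 in edgeR's quasi-likelihood test, and 42.8% of all tested genes were called in this comparison. Within genotypes, 1 of the 9 was called in the FKBP57 knockout, where 6.32% of all genes were, 5 in the FKBP73 knockout, against 14.3% of all genes, and 4 in wild type, against 24.5%. The median log2 fold change of the 9 genes was -0.52 in the average and -0.68, -0.47 and -0.5 in the FKBP57 knockout, the FKBP73 knockout and wild type, beside -0.073, -0.097, -0.026 and -0.058 over all tested genes.

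**Figure D1:**
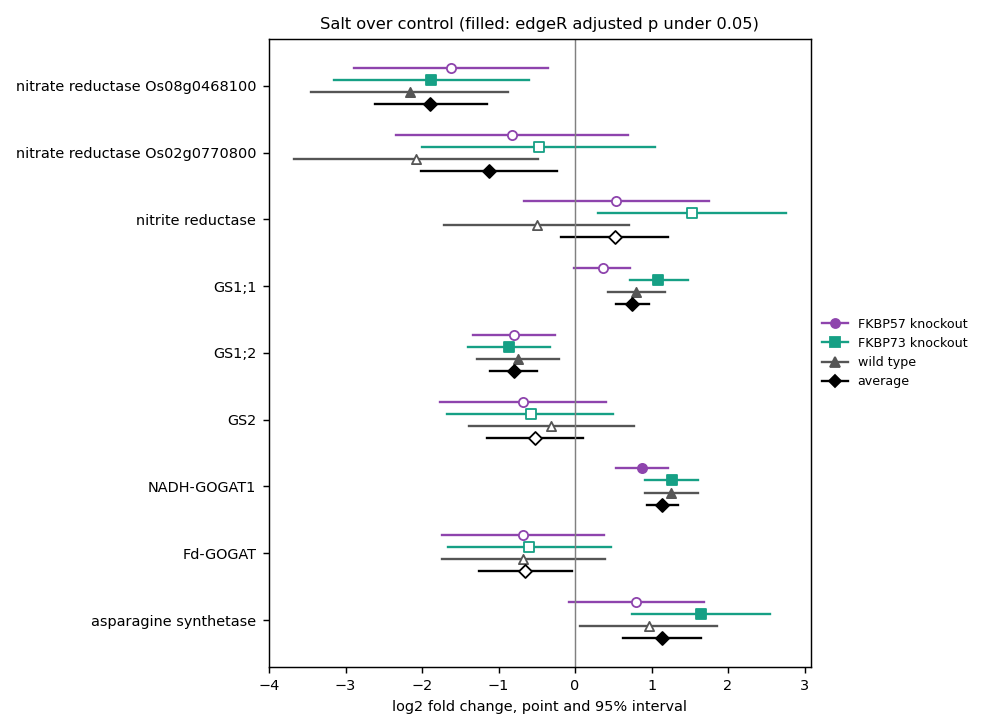
Log2 fold change of salt over control for each gene (rows), with 95% intervals, in each genotype and averaged over genotypes; filled symbols mark an edgeR adjusted p under 0.05. NADH-GOGAT1 is filled in all 4 comparisons at 0.88 to 1.27, while the intervals of GS2 and nitrite reductase in the average include 0.

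The salt and control libraries did not overlap for 2 of the 9 genes in the FKBP57 knockout, where 17.9% of all tested genes showed no overlap. The same was true of 6 of 9 in the FKBP73 knockout, against 45.8% of all genes, and of 6 of 9 in wild type, against 38.5%. When all 9 salt libraries were set against all 9 controls, 1 of the 9 genes, NADH-GOGAT1, showed no overlap, and 7.18% of all genes did.

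**Figure D2:**
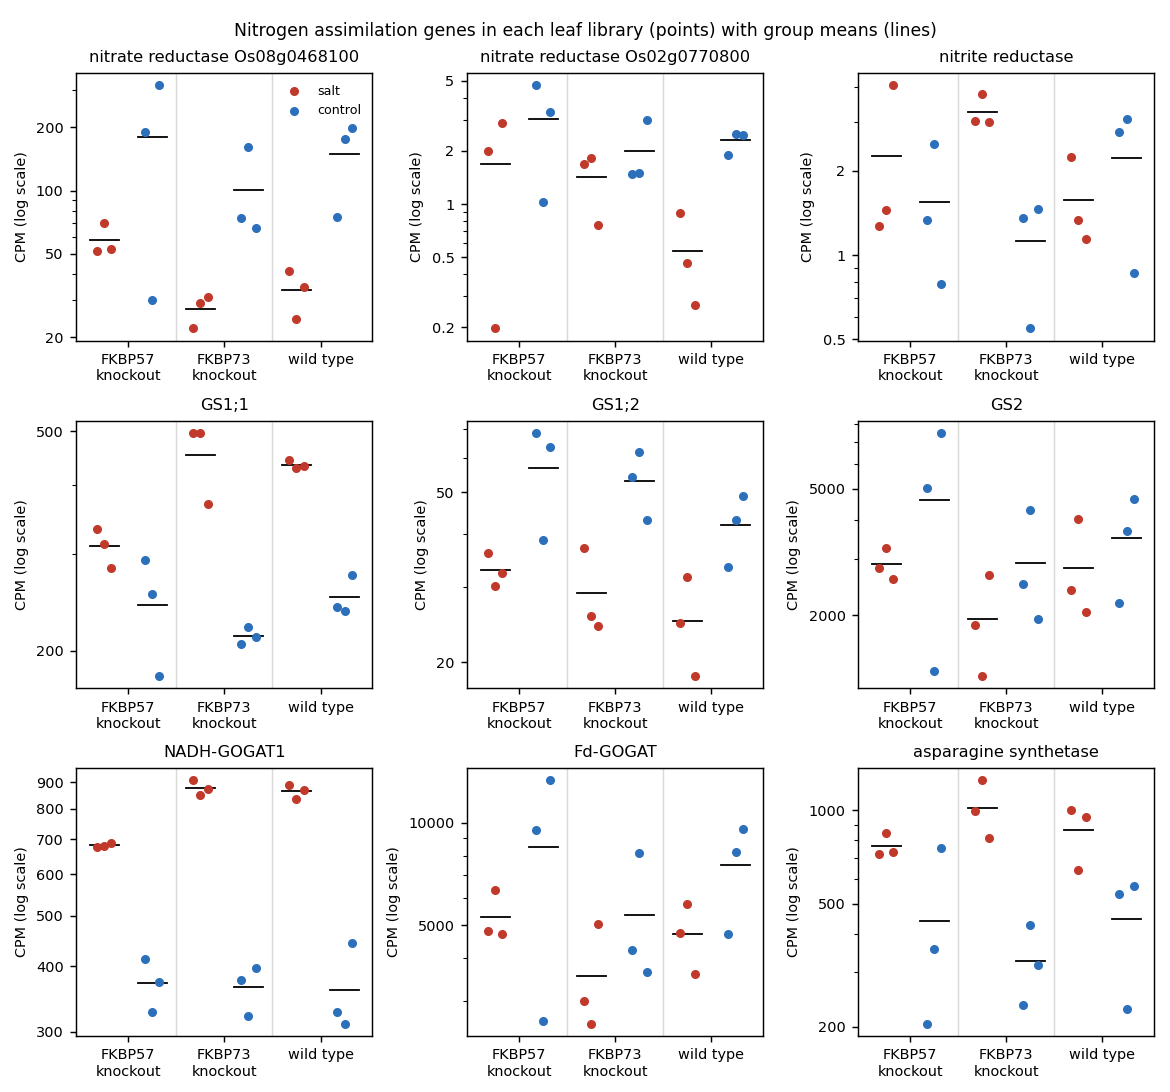
CPM on a log scale for each gene (panels) in every library (points), salt in red left of control in blue within each genotype, with lines at the group means of 3 libraries. NADH-GOGAT1 lies between 677 and 907 CPM in the salt libraries and between 311 and 444 CPM in the controls, whereas GS2 and Fd-GOGAT spread most in the FKBP57 knockout controls.

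Nitrate reductase Os08g0468100, which carries out the first and usually limiting step of nitrate use, was lower under salt. It had 51.7, 70.3 and 52.4 CPM in FKBP57 knockout salt leaves, against 190, 30.1 and 317 CPM in the controls of that line. It had 22, 29 and 31 CPM in FKBP73 knockout salt leaves, against 74.1, 161 and 66.1 CPM in its controls. Wild-type salt leaves held 41.5, 24.4 and 34.6 CPM, against 74.6, 176 and 199 CPM in wild-type controls. All salt libraries thus lay below all controls in the FKBP73 knockout and in wild type, while in the FKBP57 knockout control 2 lay below every salt library of that line.

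The average log2 fold change of Os08g0468100 was -1.89 (SE 0.35, edgeR adjusted p = 0.00056), which is 3.7-fold lower under salt. The gene fell 4.48-fold in wild type (log2 -2.16, SE 0.6, edgeR adjusted p = 0.019) and 3.67-fold in the FKBP73 knockout (log2 -1.88, SE 0.6, edgeR adjusted p = 0.048). In the FKBP57 knockout its log2 fold change was -1.62, with a 95% interval from -2.89 to -0.36 and an edgeR adjusted p of 0.13. Without FKBP57 knockout control 2 that value was -2.09 (edgeR adjusted p = 0.0061). The wild-type call was lost without wild type control 2, salt 2 or salt 3 (edgeR adjusted p 0.057 to 0.071). In the FKBP73 knockout the call was lost in 14 of 18 fits that left out 1 library each (edgeR adjusted p 0.056 to 0.19) and remained without wild type control 1, wild type control 3, FKBP57 knockout control 2 or FKBP57 knockout control 3.

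The other nitrate reductase gene, Os02g0770800, was counted at a low level. Its libraries had 2.01, 0.197 and 2.88 CPM under salt, against 4.71, 1.03 and 3.33 CPM in controls, in the FKBP57 knockout. They had 1.69, 1.83 and 0.761 CPM under salt, against 1.48, 1.5 and 2.98 CPM in controls, in the FKBP73 knockout. In wild type they had 0.89, 0.462 and 0.266 CPM under salt, against 1.91, 2.5 and 2.48 CPM in controls. Salt and control libraries overlapped in both knockouts and were apart in wild type.

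Averaged over genotypes Os02g0770800 fell by 1.13 on the log2 scale (SE 0.42, edgeR adjusted p = 0.041). That call was lost in 12 of 18 fits without 1 library (edgeR adjusted p 0.05 to 0.089). It remained without FKBP57 knockout control 2, FKBP73 knockout control 1, FKBP73 knockout control 2, wild type salt 1, FKBP57 knockout salt 2 or FKBP57 knockout salt 3. In wild type the log2 fold change was -2.08, with a 95% interval from -3.68 to -0.48 (edgeR adjusted p = 0.055), and it was called without FKBP57 knockout control 2 (edgeR adjusted p = 0.032) or FKBP57 knockout salt 2 (edgeR adjusted p = 0.02). The deposited counts of this gene were even numbers in 18 of 18 libraries, and the sources used here do not say how reads of a pair were counted.

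Nitrite reductase Os01g0357100, which makes ammonium from nitrite in the plastid, was also low in counts and was not called in any genotype. FKBP57 knockout leaves had 1.27, 1.45 and 4.04 CPM under salt and 1.34, 2.5 and 0.79 CPM in controls. FKBP73 knockout leaves had 3.01, 3.76 and 2.98 CPM under salt and 1.36, 0.547 and 1.46 CPM in controls. Wild-type leaves had 2.25, 1.33 and 1.14 CPM under salt and 2.75, 3.06 and 0.863 CPM in controls. The FKBP73 knockout was the genotype in which its salt and control libraries did not overlap, with a log2 fold change of 1.53 (95% interval 0.3 to 2.76, edgeR adjusted p = 0.092 and DESeq2 adjusted p = 0.049). The log2 values were 0.54 in the FKBP57 knockout and -0.5 in wild type. The FKBP57 knockout value was -0.19 without salt 3 of that line.

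The cytosolic glutamine synthetase genes GS1;1 and GS1;2 moved in opposite directions. In rice, GS1;1 is known for its part in nitrogen remobilisation and grain filling, and GS1;2 for ammonium assimilation in roots. GS1;1 had 333, 313 and 283 CPM in FKBP57 knockout salt leaves, against 292, 254 and 180 CPM in the controls of that line. It had 496, 497 and 369 CPM in FKBP73 knockout salt leaves, against 206, 221 and 212 CPM in its controls. Wild-type leaves had 443, 430 and 433 CPM under salt, against 240, 236 and 275 CPM in controls. Salt and control libraries were apart in the FKBP73 knockout and in wild type and overlapped in the FKBP57 knockout.

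Averaged over genotypes Os02g0735200 rose 1.68-fold (log2 0.75, SE 0.1, edgeR adjusted p = 3.8e-05). It rose 2.13-fold in the FKBP73 knockout (log2 1.09, SE 0.18, edgeR adjusted p = 0.00086) and 1.74-fold in wild type (log2 0.8, SE 0.17, edgeR adjusted p = 0.0049). In the FKBP57 knockout the log2 fold change was 0.36, with a 95% interval from -0.014 to 0.72 (edgeR adjusted p = 0.25). By group mean the order was FKBP73 knockout salt (454 ± 73.8 CPM), wild-type salt (435 ± 6.46), FKBP57 knockout salt (310 ± 25.4), wild-type control (250 ± 21.3), FKBP57 knockout control (242 ± 57) and FKBP73 knockout control (213 ± 7.37, SD, n = 3 each). The FKBP73 knockout and wild type overlapped under salt, and the FKBP57 knockout controls overlapped those of the other genotypes. Under salt the FKBP57 knockout was not called against wild type (log2 -0.49, 95% interval -0.86 to -0.12, edgeR adjusted p = 0.37). The FKBP73 knockout controls lay below the wild-type controls, at a log2 difference of -0.23 (95% interval -0.6 to 0.14, edgeR adjusted p = 1).

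GS1;2 (Os03g0223400) had 36, 30.1 and 32.3 CPM under salt in the FKBP57 knockout, against 68.7, 38.6 and 63.7 CPM in controls. The FKBP73 knockout had 37.1, 25.7 and 24.3 CPM under salt, against 54.3, 61.9 and 43 CPM in controls. Wild-type leaves held 24.7, 31.6 and 18.6 CPM under salt, against 33.5, 43.1 and 48.9 CPM in controls. Salt libraries lay below the controls of the same genotype in all 3 genotypes, although salt 1 of both knockouts lay above wild type control 1.

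The average log2 fold change of Os03g0223400 was -0.8 (SE 0.14, edgeR adjusted p = 0.00049), or 1.75-fold lower under salt. Its log2 fold changes were -0.8 in the FKBP57 knockout (SE 0.25, edgeR adjusted p = 0.075), -0.87 in the FKBP73 knockout (SE 0.25, edgeR adjusted p = 0.031) and -0.75 in wild type (SE 0.25, edgeR adjusted p = 0.042). In the FKBP57 knockout it was called without control 2 (log2 -0.98, edgeR adjusted p = 0.016). In the FKBP73 knockout the call was lost without control 1, control 2, salt 2 or salt 3 of that line (edgeR adjusted p 0.083 to 0.13). In wild type it was lost without wild type control 2, control 3, salt 1 or salt 3, FKBP57 knockout salt 1 or salt 2, or FKBP73 knockout control 1 or salt 2 (edgeR adjusted p 0.05 to 0.17). It was also lost in a fit of the wild-type libraries alone (edgeR adjusted p = 0.076).

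GS2 (Os04g0659100), the plastid glutamine synthetase, was not called in any genotype. FKBP57 knockout leaves had 2810, 3260 and 2610 CPM under salt and 5050, 1340 and 7500 CPM in controls. FKBP73 knockout leaves had 1870, 1290 and 2690 CPM under salt and 2510, 4300 and 1950 CPM in controls. Wild-type leaves had 2410, 4030 and 2050 CPM under salt and 2190, 3680 and 4660 CPM in controls. Salt and control libraries overlapped in each genotype, and the controls of the FKBP57 knockout held both the lowest and the highest control value. The average log2 fold change was -0.52, with a 95% interval from -1.15 to 0.1 (edgeR adjusted p = 0.16). Without FKBP57 knockout control 2 it was -0.67 (edgeR adjusted p = 0.024).

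NADH-GOGAT1 (Os01g0681900), the NADH-dependent glutamate synthase, rose under salt in each genotype. It had 677, 681 and 689 CPM in FKBP57 knockout salt leaves, against 414, 327 and 373 CPM in the controls of that line. It had 907, 852 and 875 CPM in FKBP73 knockout salt leaves, against 376, 322 and 397 CPM in its controls. It had 888, 836 and 871 CPM in wild-type salt leaves, against 327, 311 and 444 CPM in wild-type controls. Every salt library lay above every control, and the FKBP57 knockout salt libraries lay below those of the other genotypes.

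Averaged over genotypes NADH-GOGAT1 rose 2.2-fold (log2 1.14, SE 0.094, edgeR adjusted p = 4.5e-07). It rose 1.84-fold in the FKBP57 knockout (log2 0.88, SE 0.16, edgeR adjusted p = 0.0044), 2.41-fold in the FKBP73 knockout (log2 1.27, SE 0.16, edgeR adjusted p = 0.00019) and 2.4-fold in wild type (log2 1.26, SE 0.16, edgeR adjusted p = 0.00014). In mean level the order was FKBP73 knockout salt (878 ± 27.5 CPM), wild-type salt (865 ± 26.6), FKBP57 knockout salt (682 ± 6.19), and then the controls of the FKBP57 knockout (371 ± 43.2), the FKBP73 knockout (365 ± 38.5) and wild type (361 ± 73, SD, n = 3 each). The controls did not differ beyond their spread, nor did the FKBP73 knockout and wild type under salt. A fit of the FKBP57 knockout libraries alone gave 0.89 with an edgeR adjusted p of 0.15. The deposited counts of this gene were even numbers in 16 of 18 libraries.

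Fd-GOGAT (Os07g0658400), the ferredoxin-dependent enzyme of the chloroplast, had 4810, 6320 and 4700 CPM under salt in the FKBP57 knockout, against 9490, 2610 and 13300 CPM in controls. The FKBP73 knockout had 3000, 2570 and 5030 CPM under salt, against 4220, 8150 and 3640 CPM in controls. Wild-type leaves had 4740, 5760 and 3600 CPM under salt, against 4710, 8180 and 9610 CPM in controls. As for GS2, the libraries of salt and control overlapped in each genotype. The average log2 fold change was -0.65 (95% interval -1.26 to -0.037, edgeR adjusted p = 0.081), and the values within genotypes were -0.68, -0.6 and -0.68 in the FKBP57 knockout, the FKBP73 knockout and wild type. Without FKBP57 knockout control 2 the average was -0.79 (edgeR adjusted p = 0.009).

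Asparagine synthetase (Os03g0291500) had 724, 844 and 732 CPM under salt in the FKBP57 knockout, against 205, 356 and 756 CPM in controls. The FKBP73 knockout had 996, 1250 and 814 CPM under salt, against 235, 426 and 317 CPM in controls. Wild-type leaves had 1000, 641 and 952 CPM under salt, against 536, 229 and 570 CPM in controls. All salt libraries lay above all controls in the FKBP73 knockout and in wild type, and in the FKBP57 knockout control 3 lay among the salt libraries.

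Averaged over genotypes Os03g0291500 rose 2.2-fold (log2 1.14, SE 0.24, edgeR adjusted p = 0.0017) and it rose 3.13-fold in the FKBP73 knockout (log2 1.65, SE 0.42, edgeR adjusted p = 0.018). That call was lost without FKBP73 knockout control 1, control 3 or salt 2 (edgeR adjusted p 0.064 to 0.082). The log2 fold changes were 0.8 in the FKBP57 knockout (95% interval -0.083 to 1.69, edgeR adjusted p = 0.28) and 0.96 in wild type (95% interval 0.069 to 1.85, edgeR adjusted p = 0.1). Without FKBP57 knockout control 3 they were 1.44 (edgeR adjusted p = 0.039) and 0.95 (edgeR adjusted p = 0.047).

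Ratios between the counts of pairs of members were taken within each library. Counts of NADH-GOGAT1 over counts of Fd-GOGAT were 0.141, 0.108 and 0.147 in FKBP57 knockout salt leaves, against 0.0436, 0.125 and 0.0282 in the controls of that line. The ratios were 0.303, 0.332 and 0.174 in FKBP73 knockout salt leaves, against 0.0889, 0.0395 and 0.109 in controls, and 0.187, 0.145 and 0.242 in wild-type salt leaves, against 0.0693, 0.038 and 0.0462 in controls. Salt libraries lay above the controls in the FKBP73 knockout and in wild type, and FKBP57 knockout control 2 lay between the salt libraries of its line.

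Counts of GS1;1 over counts of GS2 had a median of 0.137 over the salt libraries (0.0961 to 0.386) and of 0.0642 over the controls (0.024 to 0.19). Counts of asparagine synthetase over GS2 had a median of 0.302 under salt (0.159 to 0.975) and of 0.101 in controls (0.0405 to 0.266). Both ratios overlapped between salt and control. The ratio of the plastid pair, GS2 over Fd-GOGAT, was 0.555 at the median under salt (0.501 to 0.701) and 0.527 in controls (0.45 to 0.595). These ratios are of read counts, not of molecules, since the genes differ in length, and they were not tested.

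**Figure D3:**
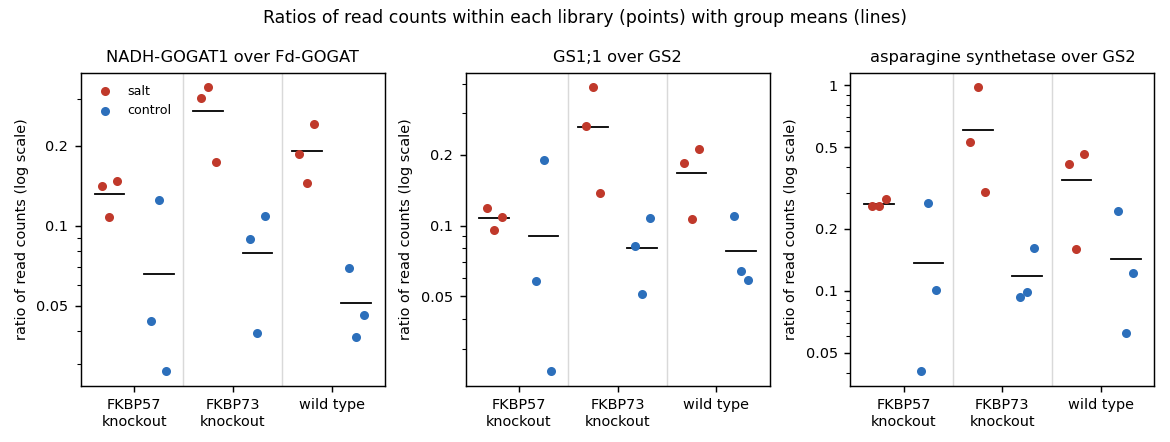
Ratios of read counts between members in every library (points) on a log scale, salt in red left of control in blue within each genotype, with lines at group means of 3 libraries. NADH-GOGAT1 over Fd-GOGAT runs from 0.108 to 0.332 under salt and from 0.0282 to 0.125 in controls.

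Replicates of the 9 genes differed in how far they scattered. The pooled SD of log2-CPM within groups was 0.15 for NADH-GOGAT1 and 0.19 for Os02g0735200, but 0.87 for Os08g0468100, 0.7 for GS2 and 0.66 for Fd-GOGAT, beside a median of 0.43 over all tested genes. The SDs of the last 3 genes were 0.31, 0.44 and 0.38 under salt and 1.19, 0.88 and 0.86 in controls. The median SD of all tested genes was likewise lower under salt, at 0.31, against 0.49 in controls. Each of the other members had a lower SD under salt as well, such as asparagine synthetase at 0.28, against 0.73 in controls, except Os02g0770800 at 1.24, against 0.73 in controls.

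Among the 9 controls these 3 genes followed one another closely. Pearson's r was 0.991 between Os08g0468100 and Fd-GOGAT (exact permutation test, p = 2.8e-06, adjusted p = 0.0002), and rho was 1 (exact permutation, p = 5.5e-06, adjusted p = 0.0004). It was 0.982 between Os08g0468100 and GS2 (exact permutation, p = 5e-05, adjusted p = 0.0012), with rho 0.95 (p = 0.00035, adjusted p = 0.0063). It was 0.986 between GS2 and Fd-GOGAT (exact permutation, p = 3.3e-05, adjusted p = 0.0012), again with rho 0.95 (p = 0.00035, adjusted p = 0.0063). With the 2 libraries farthest from the median left out, r was 0.995, 0.971 and 0.973. Under salt the pair of GS2 and Fd-GOGAT had r = 0.946 (exact permutation, p = 0.00014, adjusted p = 0.0025) and rho 0.95 (p = 0.00035, adjusted p = 0.0063), and r was 0.973 without the 2 farthest libraries. Between Os08g0468100 and GS2 under salt r was 0.325 (exact permutation, p = 0.4, adjusted p = 0.67) and rho 0.367 (p = 0.34, adjusted p = 0.71). Asparagine synthetase and GS2 under salt had r = -0.899 (exact permutation, p = 0.0013, adjusted p = 0.019) and rho -0.833 (p = 0.0083, adjusted p = 0.099), and r was -0.664 without wild type salt 2 and FKBP73 knockout salt 2. Tests were two-sided, and p was adjusted over 72 tests of each coefficient, 36 pairs in each condition. The smallest p that these exact permutations can give is 2.8e-06 for r and 5.5e-06 for rho. Permutations ran over all 9 libraries of a condition without regard to genotype, so differences between genotypes enter these coefficients and p-values. The genes share each library and its scaling factor. How many other genes follow Os08g0468100, GS2 and Fd-GOGAT as closely among the controls was not counted.

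The same controls also differed in the summed level of the leaf marker list. It was 32900, 7110 and 48700 CPM in the FKBP57 knockout controls, 16000, 31800 and 12800 CPM in the FKBP73 knockout controls and 13100, 28300 and 27600 CPM in wild-type controls. Under salt it was 12800, 16400 and 13400 CPM in the FKBP57 knockout, 7710, 4940 and 11400 CPM in the FKBP73 knockout and 9250, 12700 and 5690 CPM in wild type. The control lowest in this sum, FKBP57 knockout control 2, was also lowest in Os08g0468100, GS2 and Fd-GOGAT, and the highest, FKBP57 knockout control 3, was highest in all 3. Most of the sum came from 1 marker, which held 5750 of the 7110 CPM in FKBP57 knockout control 2. In FKBP57 knockout control 3 the same marker held 39600 of the 48700 CPM. The part of leaf marker level in the results for these genes was not tested. Of the 5 leaf markers 4 fell and 1 was not called in the salt average (log2 -0.68 to -1.62), where 42.8% of all tested genes were called. Within genotypes 1 of 5 was called in the FKBP73 knockout, and 0 in the FKBP57 knockout and in wild type.

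**Figure D4:**
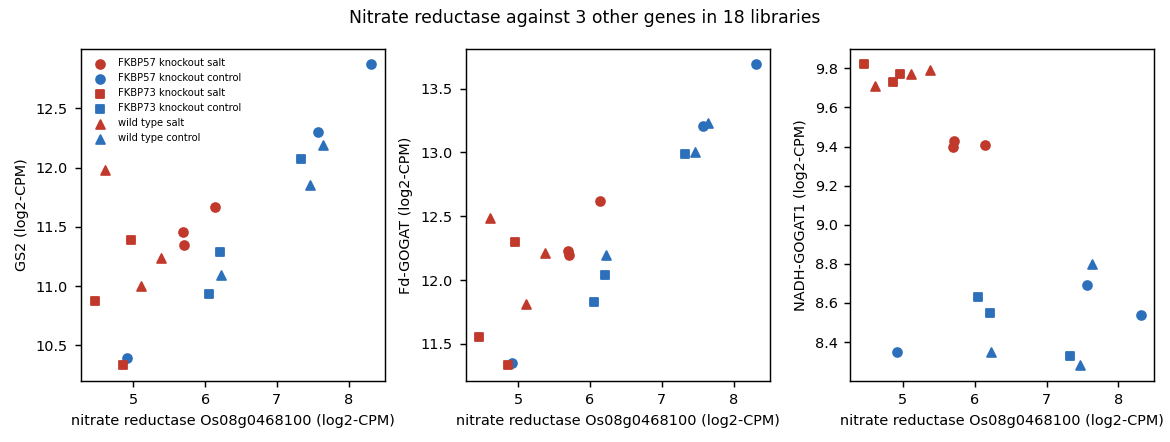
Log2-CPM of GS2, Fd-GOGAT and NADH-GOGAT1 (vertical axes) against nitrate reductase Os08g0468100 (horizontal axis) in each of 18 libraries, red for salt and blue for control, with a symbol for each genotype. The control libraries line up for GS2 and Fd-GOGAT (r 0.982 and 0.991), and in the panel of NADH-GOGAT1 every salt library lies above every control.

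None of the 9 genes was called between either knockout and wild type, under salt or in controls, and both knockouts were set against the same wild-type libraries. In the FKBP57 knockout 0.304% of all tested genes were called against wild type under salt and 0.204% in controls, and in the FKBP73 knockout 0% were called in each condition. The differences of the salt response between each knockout and wild type also gave 0 of 9, with 0% of all genes called. DESeq2 also called 0 of 9 in all 6 of these comparisons. Of all genes it called 370 in the FKBP57 knockout under salt and 107 in controls. In the FKBP73 knockout it called 62 under salt and 24 in controls. For the difference of salt response it called 26 genes in the FKBP57 knockout and 4 in the FKBP73 knockout. At an unadjusted p under 0.05, 2 of 9 genes passed for the FKBP57 knockout under salt, 1 for the difference of salt response in the FKBP73 knockout and 0 in the other comparisons. Of all 25957 tested genes, 2589 passed unadjusted in the FKBP57 knockout under salt and 777 in the FKBP73 difference of salt response.

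The genes that passed unadjusted in the FKBP57 knockout under salt were nitrate reductase Os02g0770800, at a log2 difference of 1.65 (95% interval 0.064 to 3.24, edgeR adjusted p = 0.49), and Os02g0735200, at -0.49 (95% interval -0.86 to -0.12, edgeR adjusted p = 0.37). NADH-GOGAT1 in the same comparison was at -0.34 (95% interval -0.69 to 0.00059, edgeR adjusted p = 0.5). The FKBP57 knockout controls differed from wild-type controls by -0.52 to 0.45 over the 9 genes. The FKBP73 knockout differed from wild type by -0.54 to 1.4 under salt and by -0.99 to 0.34 in controls.

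For the salt response itself, the FKBP57 knockout minus wild type ran from -0.44 to 1.26 over the 9 genes, with Os02g0735200 at -0.44 (95% interval -0.97 to 0.077) and NADH-GOGAT1 at -0.38 (95% interval -0.87 to 0.1). The FKBP73 knockout minus wild type ran from -0.27 to 2.03, and nitrite reductase stood at the upper end (95% interval 0.31 to 3.75, edgeR adjusted p = 0.99). The 95% intervals lay within 1 log2 unit of 0 for 3 or 4 of the 9 genes in each of these 6 comparisons, so larger differences were not excluded for the others. A salt call present in one genotype and missing in another is therefore not shown to differ between them.

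**Figure D5:**
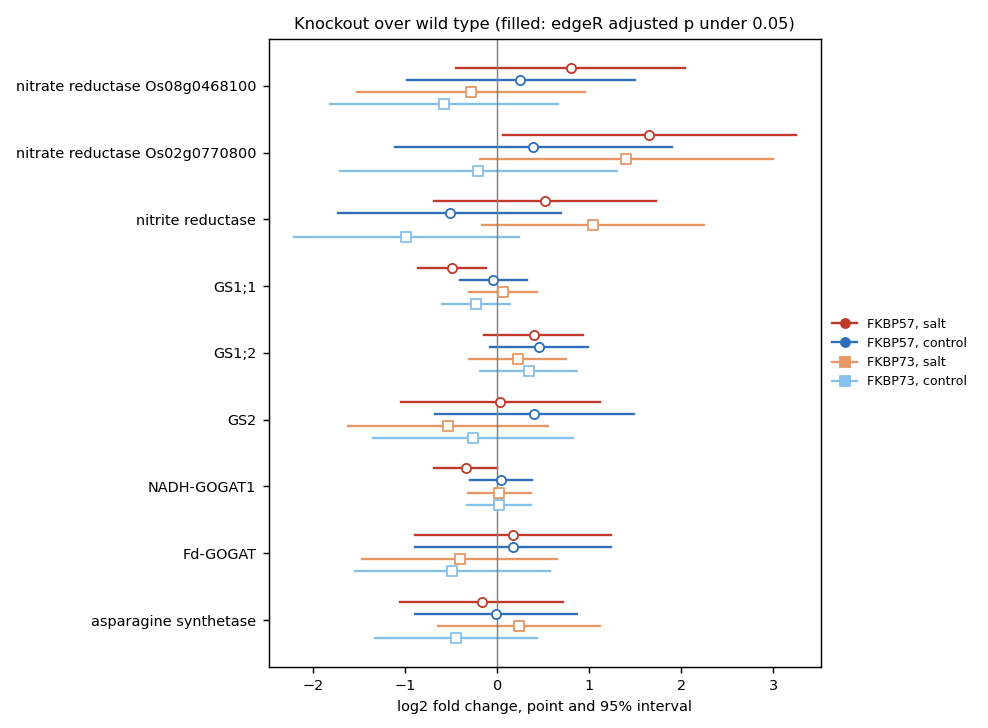
Log2 fold change of each knockout over wild type for the 9 genes (rows), under salt and in controls, with 95% intervals; a filled symbol would mark an edgeR adjusted p under 0.05. No symbol is filled, and the interval of GS1;1 in the FKBP57 knockout under salt (-0.86 to -0.12) lies below 0 before adjustment.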

How the data were processed

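The deposited values, made by the authors, are whole-number read counts for each gene in 18 libraries, all in 1 table. Per the submitters' processing notes, the tools included HTSeq 0.9.1 and fastp 0.22.0, with IRGSP-1.0 as the build. No aligner, annotation release or strand setting is named there. The tests were run with edgeR 4.0.16 (R 4.3.3) on genes passing filterByExpr (minimum count 10, minimum total 15). TMM factors were 0.779 to 1.11. The quasi-likelihood fit used 1 mean for each of the 6 groups and had 12 residual degrees of freedom. All 10 contrasts were two-sided, with Benjamini-Hochberg adjustment over 25957 genes, and the procedure was tested on simulated counts. A prior count of 2 was added for log2-CPM.

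The 9 genes and all gene lists were chosen with earlier results of these data known. All 9 are named whatever their values. Of other genes, the text names the 3 most correlated with each of 3 members, 1 list gene per direction, and the 2 genes that check the salt label. Neither the table nor the reference (assembly ASM3414082v1) pairs identifiers with names. Of 49 listed identifiers 0 were found in the reference, list membership rests on prior knowledge, and the FKBP57 and FKBP73 genes were not analysed here. Replicates correlated at 0.844 to 0.98. Alternatives were DESeq2 1.42.0, RLE scaling, library totals, other filters, a fit of the compared groups alone, replicate number as block, and leaving out each library in turn. A fit without 3 libraries was chosen after seeing the data.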

Additional observations from a re-analysis of the deposited data

How the results depend on the processing

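In the salt average, the calls of Os08g0468100, Os02g0735200, Os03g0223400, NADH-GOGAT1 and asparagine synthetase kept their direction and stayed called under every alternative run. Leaving out 1 library gave 1 to 3 called genes of 9 in the FKBP57 knockout, 2 to 5 in the FKBP73 knockout, 2 to 5 in wild type and 5 to 8 in the average. The same fits called 745 to 2974, 1908 to 5102, 3093 to 8456 and 9712 to 11945 of all genes, in that order of comparisons. In the FKBP57 knockout the count was 3 with DESeq2, 2 with a mean of at least 5 CPM, 0 with only the compared groups, and 2 without the 3 libraries that stood apart, which were replicate 3 of the wild-type controls and of both FKBP57 knockout groups. Over all genes these fits called 2987, 1458, 141 and 4695 genes in that order, beside 1641 in the fit as reported. For nitrite reductase there, the log2 fold change ranged from -0.19 to 1.12 when 1 library was left out, and was -0.5 without those 3 libraries. The 2 low genes, Os02g0770800 and nitrite reductase, gave no value at a mean of at least 5 CPM.

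Replicate numbers were not used as pairs in the reported fit. Deviations of same-numbered libraries correlated at -0.662 to 0.73, with 14 of 45 pairs over 0.1. Libraries of different number were not compared in this way, so whether the numbers mark pairs or a batch was not tested. With the replicate block, wild type had 3 of the 9 genes called and 5402 of all genes, beside 4 and 6364 in the reported fit. With this block Os03g0223400 was at -0.76 in wild type (edgeR adjusted p = 0.055). Os08g0468100 was then at -1.9 in the FKBP73 knockout (edgeR adjusted p = 0.066). DESeq2 called Os08g0468100 (adjusted p = 0.041) and Os03g0223400 (adjusted p = 0.023) in the FKBP57 knockout and Fd-GOGAT in the average (adjusted p = 0.033). Nitrite reductase in the FKBP73 knockout was called by DESeq2 (adjusted p = 0.049), with only the compared groups (edgeR adjusted p = 0.022) and without the 3 libraries (edgeR adjusted p = 0.014). Without TMM factors the all-gene median of the FKBP57 knockout salt effect was higher by 0.12, and no member's salt effect changed direction. Library totals ended the call of Os02g0770800 in the average (edgeR adjusted p = 0.057). The cause of these changes was not tested.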

Other observations

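Further nitrogen genes were followed as identifiers. In the salt average 42.8% of all tested genes were called, which is the background for the counts of each list here, and nothing particular to a list is read from them. Of 8 listed for assimilation 7 were tested, and in the salt average 2 rose, 1 fell and 4 were not called, with a median log2 fold change of 0.096. The largest were Os03g0712800 at 3.7 (SE 0.44, edgeR adjusted p = 1.4e-05) and Os03g0794500 at -0.99 (SE 0.13, edgeR adjusted p = 3.5e-05). Os03g0712800 was low in counts, at 0.0556 to 1.23 CPM in controls and 2.33 to 8.25 CPM under salt. Of 14 listed for nitrogen transport and nitrate signalling 8 were tested, of which 2 rose, 3 fell and 3 were not called, with a median of -0.32. Os10g0554200 was at 1.55 (SE 0.18, edgeR adjusted p = 1.2e-05) and Os04g0509600 at -1.35 (SE 0.26, edgeR adjusted p = 0.00085). None of these genes was called between a knockout and wild type in edgeR.

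Of 8 genes listed for the circadian clock, 3 rose, 1 fell and 4 were not called in the salt average, where 42.8% of all tested genes were called, and the summed level ran from 1500 to 2390 CPM under salt and from 1360 to 4760 CPM in controls. Their part in the results was not tested. Of the 3 root markers 2 were tested and both fell in the salt average, while neither was called within a genotype.

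Over all 18 libraries, salt and control pooled, and among 12952 genes of at least 10 CPM on average, the genes most like Os08g0468100 in log2-CPM were Os04g0657500 (r = 0.962), Os05g0365600 (r = 0.957) and Os01g0823600 (r = 0.957). The genes most like GS2 were Os07g0212200 (r = 0.994), Os07g0409200 (r = 0.992) and Os01g0959900 (r = 0.988). Those most like asparagine synthetase were Os06g0662550 (r = 0.925), Os01g0615050 (r = 0.919) and Os09g0509500 (r = 0.903). None is among the 9 genes, and these values are descriptions.

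Even numbers were frequent in the deposited counts. The value 2 occurred 18909 times and the value 1 occurred 11674 times. Of 23807 genes with counts in every library, 116 had an even count in all 18, among them nitrate reductase Os02g0770800. Whether reads of a pair were counted separately was not tested.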
